A study of Mus musculus with 10 samples.

Results

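Epithelial-mesenchymal transition (EMT) regulators were followed through normal mammary fibroblasts (NFs) and tumor cells of a mouse model of invasive lobular carcinoma (ILC) grown in three-dimensional gels. Members were taken by gene symbol from the table of counts per gene: Snai1, Snai2, Twist1, Twist2, Zeb1, Zeb2, Prrx1, Vim, Grhl2 and Ovol1, which are 10 of the 55486 genes listed, each with 1 entry. The 10 libraries came from 5 gels of collagen and basement membrane extract cultured for 7 days, which the labels number. Gel 1 held NFs alone and gave 1 library of CD26- NFs and 1 of CD26+ NFs. Gels 2 and 3 held tumor cells alone, of the lines 13-MCB-17 and 10-SJK-221. Gels 4 and 5 held NFs together with 13-MCB-17 and with 10-SJK-221, and each gave 1 library of CD26- NFs, 1 of CD26+ NFs and 1 of tumor cells. In the sample titles the CD26- libraries read Tom+ and the CD26+ libraries GFP+, so subset and fluorescent reporter cannot be told apart. The paper reports that CD26 itself fell quickly once CD26+ NFs were cultured. The NFs were primary cells from mice of the mTmG genotype aged 8 weeks, sorted without EpCAM, CD49f, CD45 and CD31, pooled over mice and passaged before use. All tumor cells carried WapCre, a Cre driven by a milk protein promoter of the mammary epithelium, and floxed Cdh1 alleles, and each line derives from tumors of that genotype. Nothing states that the NFs of different gels came from separate primary cultures, so p-values measure the spread between these libraries only, which may be partly technical.

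EMT is the programme by which epithelial cells loosen their junctions and take on traits of mesenchymal cells. The factors of the Snail (Snai1, Snai2) and Zeb (Zeb1, Zeb2) families are zinc finger repressors that bind E-boxes in promoters of junction genes, the Twist factors (Twist1, Twist2) are basic helix-loop-helix proteins, Prrx1 is a homeobox factor of mesenchymal cells, and Vim codes for vimentin, the intermediate filament used as a readout of the mesenchymal state. Grhl2 and Ovol1 act on the other side, as transcription factors of epithelial cells that hold back the EMT programme. Fibroblasts use many of the same factors as lineage genes, and Cdh1, which codes for E-cadherin and is lost in ILC, is a classical target of the Snail and Zeb repressors.

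The libraries held between 14142334 and 18408940 counts, so that 3 counts, taken as the floor of detection, equal 0.163 to 0.212 CPM (counts in every 1000000 counts of a library); intervals and floors given here cover counting error only. Cdh1 was read at 238.6 and 268.6 CPM in tumor cells alone, at 143.7 and 139.9 CPM in co-cultured tumor cells, at 0 in NFs alone and at 2.42 to 5.23 CPM in co-cultured NFs; counts over a whole gene do not show whether its floxed exons were removed. The paper reports that its tumor cell lines were genotyped to check that Cdh1 had recombined. The labelled cell types carried their defining markers: 10 NF markers summed to between 26990 and 77790 CPM in NFs and to at most 220.2 CPM in tumor cells, and 10 tumor epithelium markers summed to between 4152 and 5514 CPM in tumor cells and to at most 1.12 CPM in NFs alone. In co-cultured NFs the epithelial markers summed to between 119.2 and 324.3 CPM, which equals 2.69% and 4.0% (CD26- and CD26+) of the tumor cell level in gel 4 and 2.82% and 6.28% in gel 5; single markers gave 0.827% to 17.6%. In co-cultured tumor cells the NF markers summed to 0.425% of the NF level in gel 4 and to 0.213% in gel 5, above their level alone, while single markers gave -3.19% to 1.81%; 4 of these markers (Pdgfrb, Lum, Thy1 and Fap) were at 0 in tumor cells alone. Summed levels of 5 endothelial markers stayed at or under 24.4 CPM in all libraries, those of 7 leukocyte markers ranged from 12.1 to 303.1 CPM with the highest value in 13-MCB-17 tumor cells alone, where Cd68 made up 299.0 CPM and the pan-leukocyte marker Ptprc was at 0, and those of 5 pericyte and smooth muscle markers were 5.28 to 25.6 CPM in tumor cells, with 45.7 and 87.0 CPM in NFs alone against 206.9 to 556.1 CPM after co-culture. In bulk libraries such as these, fewer cells of a type and less RNA per cell cannot be told apart.

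Whether tumor cells and NFs use different EMT regulators was asked first. When both cultures were averaged, 6 of the 10 members were lower in tumor cells than in NFs (Snai2, Twist2, Zeb1, Zeb2, Prrx1 and Vim), 2 were higher (Grhl2 and Ovol1) and 2 did not pass the test (Snai1 and Twist1). The calls of Vim and Twist1 in this comparison changed with the processing, as given with each gene. Of all 15878 genes tested, 33.2% were lower and 29.3% were higher. Among cells cultured alone, 8 members were lower and 2 higher in tumor cells, beside 28.9% and 25.0% of all genes. Scaling libraries by their totals only turned this balance among all genes, to 4439 lower and 5622 higher against 5267 and 4651 over cultures and to 4014 lower and 4493 higher against 4589 and 3975 alone. Between the cells sorted from the same co-cultures, 5 members were lower, 3 were higher (Snai1, Grhl2 and Ovol1) and Twist1 and Vim did not pass, beside 27.6% lower and 23.3% higher among all genes (4376 and 3700 genes, which became 3652 and 4711 with totals only). The CD26- and CD26+ NFs of a gel counted as separate libraries here, and with both summed into 1 library per gel 9, 9 and 7 members were called over cultures, alone and in co-culture. Twist2 and Prrx1 in all tumor libraries, and Grhl2 in NFs alone, lay below the level of the filter on low counts (10 counts at the median depth, 0.613 CPM). They entered these tests through the other cell type, so that their direction was set and the counts of members are a description. Calls were made at a Benjamini-Hochberg adjusted p under 0.05 of edgeR's quasi-likelihood test over all genes tested, and adjusted p-values are of that test throughout.

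**Figure D1:**
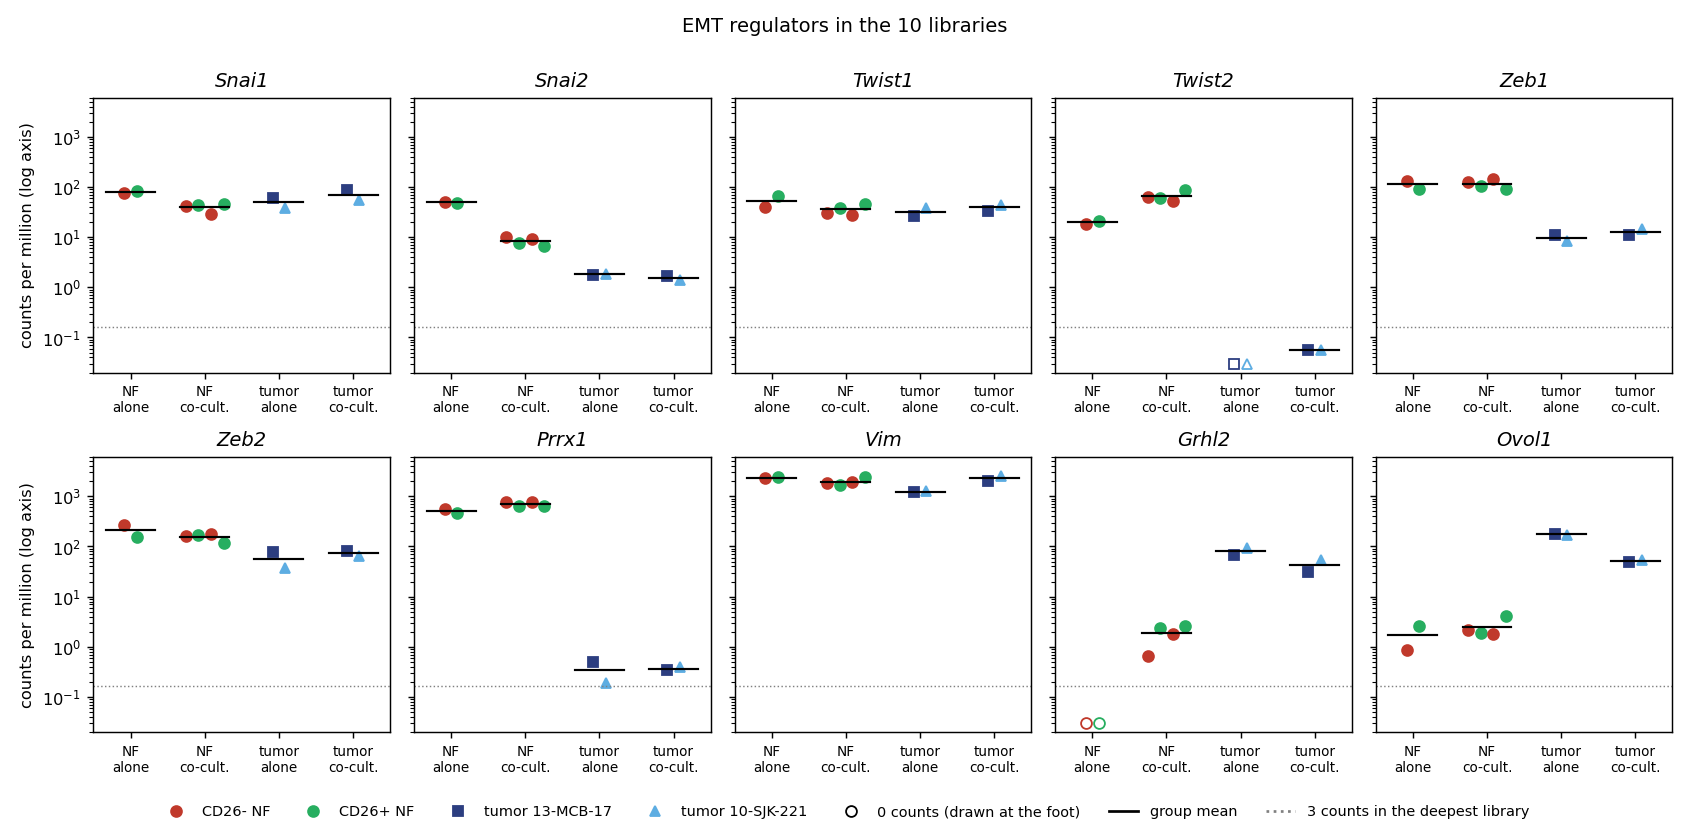
CPM (log axis) of the 10 EMT regulators in each of the 10 libraries, grouped by cell type and culture; each point is 1 library, the line is the group mean, and open points at the foot mark 0 counts. Prrx1 and Twist2 separate NFs from tumor cells in all libraries, Grhl2 and Ovol1 separate them the other way, and the points of Twist1 overlap in co-culture.

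Snai1 (ENSMUSG00000042821, chr2:167538195-167542814, plus strand, GRCm38) codes for Snail, a repressor of E-cadherin that also serves activated fibroblasts. It was read at 75.3 and 83.6 CPM in CD26- and CD26+ NFs alone, at 42.0 and 44.3 CPM in those of gel 4 and at 29.3 and 45.0 CPM in those of gel 5. Tumor cells alone held 59.2 CPM in 13-MCB-17 and 38.9 CPM in 10-SJK-221, and co-cultured tumor cells 85.3 and 55.5 CPM. Both NF libraries cultured alone were above both tumor libraries cultured alone, and both co-cultured tumor libraries were above all 4 co-cultured NF libraries. The log2 difference of tumor cells from NFs was -0.84 alone (SE 0.272, adjusted p = 0.0255) and 0.61 in co-culture (SE 0.230, adjusted p = 0.0471). The co-culture call was lost with size factors of DESeq2 in edgeR (adjusted p = 0.0685), with DESeq2 (0.0646) and without any 1 of 7 of the 10 libraries (adjusted p up to 0.470 without the co-cultured 13-MCB-17 tumor cells). The call alone was lost under scaling by totals (-0.70, adjusted p = 0.0609) and without the CD26- NFs alone (0.0733), the CD26+ NFs alone (0.0750) or the 10-SJK-221 tumor cells alone (-0.52, adjusted p = 0.185). With the NF libraries of a gel summed neither was called (adjusted p = 0.0850 alone and 0.152 in co-culture).

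Snai2 (ENSMUSG00000022676, chr16:14705852-14709385, plus strand) codes for Slug, the Snail relative of neural crest and basal mammary cells. It stood at 50.7 and 47.8 CPM in CD26- and CD26+ NFs alone and at 9.94, 7.52, 9.32 and 6.79 CPM in the CD26- and CD26+ NFs of gels 4 and 5. Tumor cells held 1.79 (13-MCB-17) and 1.85 CPM (10-SJK-221) alone and 1.70 and 1.37 CPM in co-culture, from 24 to 33 counts a library. No tumor library reached the lowest NF library. Levels were 30.0-fold lower in tumor cells than in NFs when each was cultured alone (log2 -4.91, SE 0.313, adjusted p = 1.42e-06) and 6.35-fold lower in co-culture (log2 -2.67, SE 0.278, adjusted p = 3.85e-05).

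Twist1 (ENSMUSG00000035799, chr12:33957671-33959829, plus strand) codes for the Twist factor of mesoderm that is also expressed by many fibroblasts. It was read at 39.1 and 66.1 CPM in CD26- and CD26+ NFs alone and at 30.3, 38.5, 27.6 and 46.5 CPM in those of gels 4 and 5. The tumor cells held 26.4 and 37.9 CPM alone and 33.8 and 44.2 CPM in co-culture, in the order 13-MCB-17 and 10-SJK-221. The ranges of co-cultured tumor cells and NFs overlapped, while both NF libraries cultured alone were above both tumor libraries cultured alone. The log2 difference was -0.85 alone (SE 0.279, adjusted p = 0.0265) and -0.07 in co-culture (SE 0.241, adjusted p = 0.824). Scaling by totals ended the call alone (adjusted p = 0.0895) and turned the sign in co-culture (log2 0.13, adjusted p = 0.723); without the CD26+ NFs alone the adjusted p was 0.189, and without the 13-MCB-17 tumor cells alone 0.164. Over both cultures the difference of -0.46 missed the threshold (SE 0.185, adjusted p = 0.0515), and Twist1 was called lower by DESeq2 (0.0233), with its size factors in edgeR (0.0353), with no filter (0.0331), with the NF libraries of a gel summed (0.0355) and without the CD26- NFs alone (0.0212), the 10-SJK-221 tumor cells alone (0.0411) or the CD26- NFs of gel 5 (0.0408).

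Twist2 (ENSMUSG00000007805, chr1:91801461-91848028, plus strand), which codes for the Twist relative of dermal fibroblasts and bone, was an NF gene in these gels. CD26- and CD26+ NFs alone held 18.5 and 21.1 CPM, and those of gels 4 and 5 held 62.8, 59.7, 51.6 and 86.2 CPM. Tumor cells alone had 0 counts in both lines, and co-cultured tumor cells had 1 count in each line. NFs alone were therefore at least 112-fold above tumor cells alone, with a floor of 3 counts per library, and in co-culture 4081 counts in NFs stood against 2 in tumor cells, a ratio of 1130 (exact 95% interval 313 to 9330). Other genes of the annotation (Gm29100 on the opposite strand and Gm29101 on the same strand) cover 46.5% of its exon bases, and how the authors assigned reads of overlapping genes is not given in the sources used here.

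Zeb1 (ENSMUSG00000024238, chr18:5591860-5775467, plus strand) codes for a repressor of E-cadherin and of the miR-200 family. NFs alone held 134.0 (CD26-) and 92.9 CPM (CD26+), and co-cultured NFs 124.8 and 105.3 CPM in gel 4 and 145.4 and 91.7 CPM in gel 5. In tumor cells it was read at 11.1 CPM (13-MCB-17) and 8.40 CPM (10-SJK-221) alone and at 10.9 and 14.2 CPM in co-culture. The groups did not overlap, and levels were 12.9-fold lower in tumor cells alone (log2 -3.69, SE 0.353, adjusted p = 1.84e-05) and 10.9-fold lower in co-culture (log2 -3.45, SE 0.329, adjusted p = 2.20e-05).

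Zeb2 (ENSMUSG00000026872, chr2:44983632-45117395, minus strand), the relative of Zeb1, showed a smaller difference. NFs alone held 269.3 (CD26-) and 151.3 CPM (CD26+), and co-cultured NFs 160.8, 168.6, 180.1 and 115.0 CPM (CD26- and CD26+ of gel 4, then of gel 5). Tumor cells held 77.5 (13-MCB-17) and 37.4 CPM (10-SJK-221) alone and 80.9 and 65.3 CPM in co-culture, so that all 4 tumor libraries were below all 6 NF libraries. Levels were 4.07-fold lower in tumor cells alone (log2 -2.03, SE 0.420, adjusted p = 0.00269) and 2.48-fold lower in co-culture (log2 -1.31, SE 0.373, adjusted p = 0.0150). Leaving out 1 library at a time gave log2 differences alone from -2.68 to -1.46. Without the co-cultured 10-SJK-221 tumor cells the co-culture difference was -1.14 with an adjusted p of 0.113, and without the 13-MCB-17 tumor cells alone the difference alone was -2.68.

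Prrx1 (ENSMUSG00000026586, chr1:163245119-163313710, minus strand), a homeobox gene of limb and craniofacial mesenchyme, had the sharpest split that rested on counts in all 10 libraries. CD26- and CD26+ NFs held 568.2 and 463.1 CPM alone, 762.8 and 630.1 CPM in gel 4 and 776.2 and 636.0 CPM in gel 5. Tumor cells held 9 and 3 counts alone (0.489 CPM in 13-MCB-17 and 0.191 CPM in 10-SJK-221) and 6 and 7 counts in co-culture (0.339 and 0.399 CPM). NFs exceeded tumor cells by a ratio of 1480 when cultured alone (exact 95% interval 845 to 2860) and of 1910 in co-culture (1120 to 3590). The fitted log2 difference alone was -10.65, and -11.51 without the 13-MCB-17 tumor cells alone. The NF share that the summed markers gave for the co-cultured tumor libraries would correspond to 2.96 CPM of Prrx1 in gel 4 and 1.51 CPM in gel 5, and that of the median marker to 0.750 and 1.18 CPM. These are above what was measured, while the lowest single marker gives less (0.226 CPM in gel 5, and a value below 0 in gel 4).

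Vim (ENSMUSG00000026728, chr2:13573927-13582826, plus strand) was abundant in both cell types. It was read at 2277 and 2393 CPM in CD26- and CD26+ NFs alone, at 1820 and 1670 CPM in those of gel 4 and at 1962 and 2406 CPM in those of gel 5. Tumor cells held 1195 (13-MCB-17) and 1297 CPM (10-SJK-221) alone and 2065 and 2594 CPM in co-culture. Alone, both tumor libraries were below both NF libraries, and in co-culture the ranges overlapped. Levels were 2.08-fold lower in tumor cells alone (log2 -1.06, SE 0.223, adjusted p = 0.00298), and the co-culture difference was 0.03 (SE 0.191, adjusted p = 0.903), with a negative sign under the size factors of DESeq2 (-0.03). Over both cultures Vim was 1.43-fold lower in tumor cells (log2 -0.51, SE 0.148, adjusted p = 0.0123), a call lost under scaling by totals (-0.33, adjusted p = 0.0586) and without the co-cultured 13-MCB-17 tumor cells (-0.43, adjusted p = 0.0599).

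Grhl2 (ENSMUSG00000022286, chr15:37233036-37363569, plus strand) codes for a grainyhead-like factor that sustains Cdh1 and other junction genes. Tumor cells held 66.8 (13-MCB-17) and 93.0 CPM (10-SJK-221) alone and 30.6 and 54.9 CPM in co-culture. Both NF libraries cultured alone had 0 counts, so that tumor cells alone were at least 403-fold higher, with a floor of 3 counts per library. Co-cultured NFs held 0.667 (CD26-) and 2.38 CPM (CD26+) in gel 4 and 1.78 and 2.62 CPM in gel 5, and co-cultured tumor cells were 20.1-fold above them (log2 4.33, SE 0.395, adjusted p = 3.08e-05). These NF libraries held the tumor share given above, and its part in this fold was not tested.

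Ovol1 (ENSMUSG00000024922, chr19:5549136-5560646, minus strand) codes for a zinc finger factor of skin and other epithelia. Tumor cells held 180.9 (13-MCB-17) and 171.7 CPM (10-SJK-221) alone and 49.3 and 53.6 CPM in co-culture. NFs held 0.869 (CD26-) and 2.60 CPM (CD26+) alone, 2.12 and 1.93 CPM in gel 4 and 1.78 and 4.17 CPM in gel 5. The lowest tumor library was above the highest NF library by a wide margin, and levels were 93.6-fold higher in tumor cells alone (log2 6.55, SE 0.488, adjusted p = 3.70e-06) and 17.97-fold higher in co-culture (log2 4.17, SE 0.336, adjusted p = 7.44e-06). The part of the tumor share of co-cultured NFs in the co-culture fold was not tested. Leaving out 1 library at a time gave log2 differences alone from 6.01 to 7.42, the highest without the CD26+ NFs alone. Genes on the other strand (Gm31166 and AC126029.1) overlap 22% of its exon bases.

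Levels of different members were compared per kilobase of exon. Vim led every group, with a mean of 262.7 CPM per kilobase in tumor cells alone, 491.1 in co-cultured tumor cells, 492.2 in NFs alone and 414.2 in co-cultured NFs. In tumor cells alone Ovol1 came next (50.5 CPM per kilobase), then Snai1 (30.2), Twist1 (19.7), Grhl2 (9.28) and Zeb2 (2.88), with no overlap between neighbours, and Zeb1 (0.951) and Snai2 (0.900) overlapped. In co-cultured tumor cells Snai1 (43.4) and Twist1 (24.0) stood above Ovol1 (14.7) and Grhl2 (4.96) without overlap, and Grhl2 and Zeb2 (3.66) overlapped. In NFs alone Snai1 (49.0) and Prrx1 (46.6) overlapped, as did Twist1 (32.3) and Snai2 (24.4), and Zeb1 (11.1) and Zeb2 (10.5). In co-cultured NFs Prrx1 (63.4) stood alone below Vim, Snai1 (24.8), Twist1 (21.9) and Twist2 (20.5) overlapped in turn, and Snai2 (4.15) had moved below Zeb2 (7.83).

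The response of the tumor cells to NFs was then read in each line. Over both lines, with line as a term, Snai1 and Vim rose in co-culture, Grhl2 and Ovol1 fell, and Snai2, Twist1, Zeb1 and Zeb2 did not pass the test. Of the 13197 genes tested in tumor cells, 10.8% were higher and 11.5% were lower in co-culture. Twist2 and Prrx1 were too low in tumor cells to be tested. Each line had 1 library per culture, so the values by line are descriptions without replicates.

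Ovol1 showed the widest change, to 27.2% of its level alone in 13-MCB-17 (3330 counts alone and 871 in co-culture) and to 31.2% in 10-SJK-221 (2698 and 939 counts). The fall was 3.49-fold over both lines (log2 -1.80, SE 0.107, adjusted p = 3.86e-05). Grhl2 went to 45.8% in 13-MCB-17 and to 59.0% in 10-SJK-221 (log2 -0.96, SE 0.121, adjusted p = 0.00111). Both epithelial factors were lower in co-culture in both lines. The part of NF RNA, at the shares given above, in these values was not tested.

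Vim was 1.73-fold higher in co-culture in 13-MCB-17 and 2.00-fold higher in 10-SJK-221 (log2 0.87, SE 0.140, adjusted p = 0.00341). Its rise was 870 CPM in 13-MCB-17 and 1300 CPM in 10-SJK-221, where the NF share from summed markers corresponds to 7.42 and 4.66 CPM of NF vimentin and that from the highest single marker to 29.0 and 39.6 CPM. Snai1 was 1.44-fold higher in 13-MCB-17 (exact 95% interval 1.33 to 1.56) and 1.43-fold higher in 10-SJK-221 (1.29 to 1.58), with a log2 change of 0.49 (SE 0.0994, adjusted p = 0.00906). Its rise was 26.1 and 16.6 CPM, beside 0.183 and 0.0792 CPM from the summed NF share and 0.718 and 0.673 CPM from the highest single marker. The part of NF RNA in both rises was not tested. DESeq2 did not call Snai1 (adjusted p = 0.0847). When all 10 libraries shared 1 estimate of the spread, only Ovol1 of these members was called, with adjusted p-values of 0.173 for Snai1, 0.0669 for Vim and 0.230 for Grhl2. In that fit none of the 4 was called without any 1 of the tumor libraries (adjusted p = 0.218 to 0.556 for Ovol1), and with no line term in the fit of tumor cells none was called either (0.542 for Snai1, 0.118 for Vim, 0.263 for Grhl2 and 0.0775 for Ovol1).

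Among the members that did not pass, Twist1 had a ratio of 1.28 in 13-MCB-17 and of 1.16 in 10-SJK-221 (log2 0.26, SE 0.118, adjusted p = 0.151). Its exact 95% counting intervals (1.14 to 1.45 and 1.04 to 1.3) did not include no change in either line. Zeb1 had a ratio of 0.975 in 13-MCB-17 (exact 95% interval 0.797 to 1.19) and of 1.69 in 10-SJK-221 (1.36 to 2.10), and Zeb2 ratios of 1.04 (0.969 to 1.12) and 1.75 (1.58 to 1.93). For both Zeb genes the counting interval of 1 line included no change and that of the other did not; the log2 changes over both lines were 0.33 (adjusted p = 0.345) and 0.40 (adjusted p = 0.129). Without the filter on low counts Zeb2 was called (adjusted p = 0.00927). Snai2 had ratios of 0.947 and 0.742 on fewer than 40 counts a library, and the intervals of both (0.558 to 1.60 and 0.413 to 1.32) included no change.

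**Figure D2:**
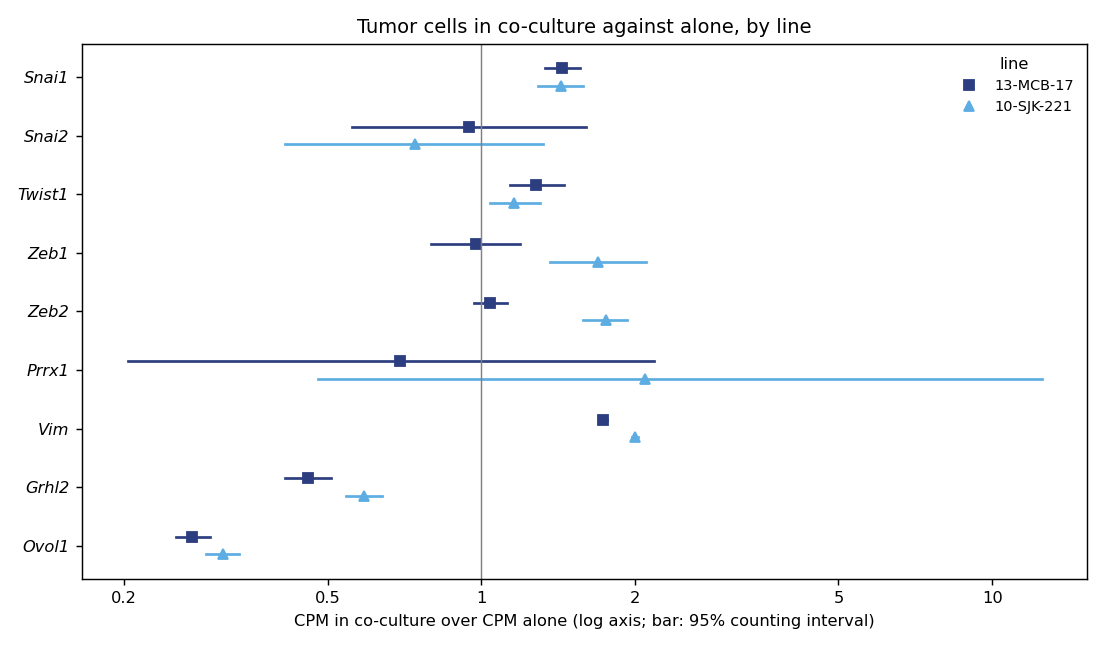
Ratio of CPM in co-culture to CPM alone in tumor cells of each line (log axis), with exact 95% counting intervals as bars; Twist2 is left out because it had 0 counts alone. Ovol1 and Grhl2 lie below 1 and Vim and Snai1 above 1 in both lines, while Zeb1 and Zeb2 lie near 1 in 13-MCB-17 and at 1.69 and 1.75 in 10-SJK-221.

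The lines themselves differed in 3 members. Snai1 was 1.61-fold lower (log2 -0.69, SE 0.0996, adjusted p = 0.00310) and Zeb2 was 1.68-fold lower in 10-SJK-221 than in 13-MCB-17 (log2 -0.75, SE 0.167, adjusted p = 0.0209), and Grhl2 was 1.49-fold higher (log2 0.58, SE 0.121, adjusted p = 0.0155). In both cultures the 10-SJK-221 library was on the same side of the 13-MCB-17 library for each of these genes. The same held for Twist1, which was higher in 10-SJK-221 but did not pass (log2 0.38, adjusted p = 0.0679). It was called with no filter (0.0491) and with totals only (0.0250). Among all 13197 genes 5.93% were higher and 8.54% lower in 10-SJK-221 (783 and 1127 genes, against 1342 and 1047 when libraries were scaled by totals only). With 10 libraries in 1 fit none of the 3 was called (adjusted p = 0.0983, 0.466 and 0.604), nor in that fit without any 1 of the tumor libraries, and DESeq2 did not call Grhl2 (adjusted p = 0.0568).

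The culture response of tumor cells was set against that of NFs as an interaction. It differed for 5 members, upward in tumor cells relative to NFs for Snai1, Snai2 and Vim and downward for Grhl2 and Ovol1, beside 7.65% of all genes upward and 10.4% downward. At 0 counts in NFs alone Grhl2 could only rise in NFs, so that its place in this count is a description. For Snai1 the difference of the log2 responses was 1.45 (SE 0.356, adjusted p = 0.0214), from a rise in tumor cells and a fall in NFs. For Snai2 it was 2.24 (SE 0.386, adjusted p = 0.00457), since the NFs lost most of their Snai2 in co-culture and the tumor cells stayed between 1.37 and 1.85 CPM. For Vim it was 1.09 (SE 0.291, adjusted p = 0.0296) and for Ovol1 -2.38 (SE 0.562, adjusted p = 0.0182). The fitted -8.92 of Grhl2 (adjusted p = 0.00400) depends on NFs alone having 0 counts and bounds nothing. Its calls under the other settings below rest on the same 0 counts and are a description. CD26- and CD26+ NFs of a gel counted as separate libraries, NFs alone came from 1 gel and co-cultured NFs from 2. With both NF libraries of a gel summed, Snai2, Grhl2 and Ovol1 were called (adjusted p = 0.0120, 0.00974 and 0.0120) and Snai1 (0.0943) and Vim (0.0653) were not. Only Snai2 and Grhl2 were called without any 1 of the libraries; Snai1 lost the call without 4 of them in turn (adjusted p up to 0.0847), Vim without 6 (up to 0.118) and Ovol1 without 3 (up to 0.0540). Without the CD26+ NFs alone the value of Ovol1 was -3.25.

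**Figure D3:**
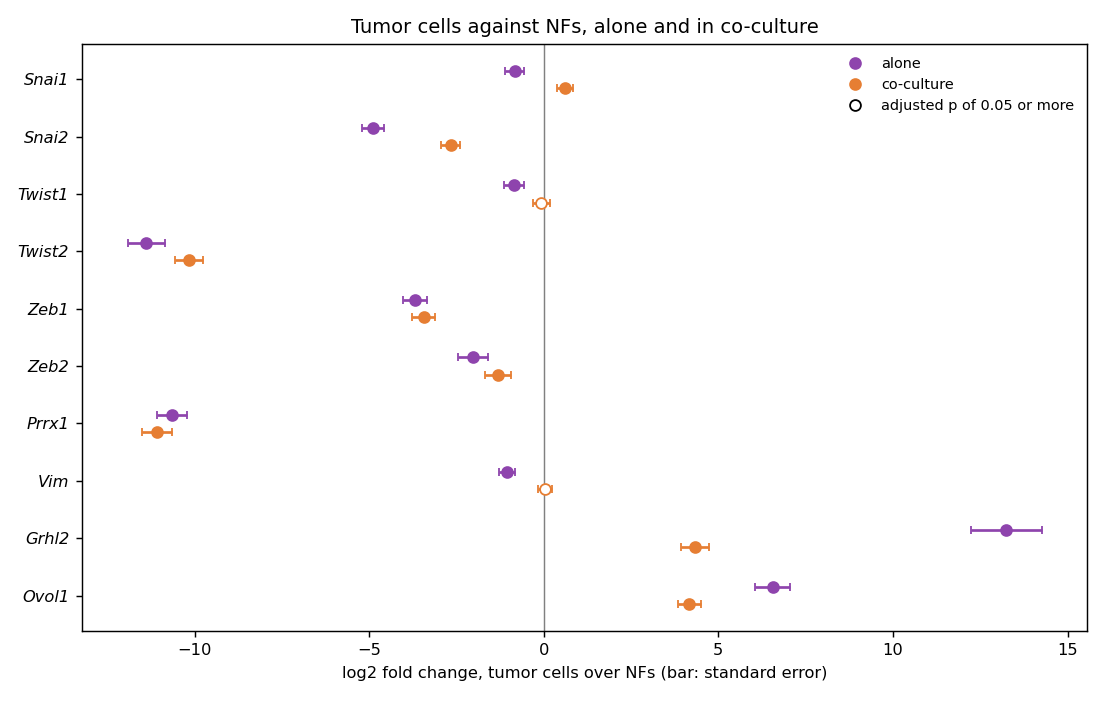
Fitted log2 fold change of tumor cells over NFs for each EMT regulator, cultured alone (purple) and together (orange), with standard errors as bars; open points have an adjusted p of 0.05 or more. Snai1 lies at -0.84 alone and at 0.61 in co-culture, Twist1 and Vim lie near 0 in co-culture, and the fitted values of Twist2 alone and Grhl2 alone rest on a group with 0 counts.

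In the NFs, co-culture with tumor cells went with lower Snai1, Snai2 and Twist1 and with higher Twist2 and Prrx1; Grhl2 was also called, but at 0 counts in NFs alone it entered the test through the co-cultured libraries and its direction was set. Of the 15013 genes tested in NFs 25.9% were higher and 22.9% lower, and NFs alone came from 1 gel, so that culture and gel cannot be told apart. Pericyte and smooth muscle markers moved in the same libraries, with Cspg4 at 2.48 and 5.97 CPM alone and 59.7 to 174.8 CPM in co-culture, Mcam at 2.61 and 3.30 CPM and then 16.3 to 103.9 CPM, and Notch3 at 28.3 and 68.9 CPM and then 125.0 to 270.9 CPM, while Rgs5 and Myh11 stayed at or under 9.25 CPM; their part in the results was not tested. Snai2 fell 5.73-fold (log2 -2.52, SE 0.147, adjusted p = 1.68e-06) and Snai1 1.93-fold (log2 -0.95, SE 0.144, adjusted p = 0.000553), with all 4 co-cultured libraries below both libraries alone. Twist2 rose 3.38-fold (log2 1.76, SE 0.187, adjusted p = 5.87e-05) and Prrx1 1.41-fold (log2 0.49, SE 0.134, adjusted p = 0.0132), again without overlap. Twist1 fell 1.41-fold (log2 -0.49, SE 0.139, adjusted p = 0.0159) with overlapping ranges; its call was lost without the CD26+ NFs alone (adjusted p = 0.196), and that of Prrx1 without either library of NFs alone (adjusted p = 0.0965 and 0.111). The Twist genes thus went apart in NFs, Twist1 down and Twist2 up, while the Snail genes both fell. Zeb1 (log2 0.10, adjusted p = 0.580), Zeb2 (log2 -0.34, adjusted p = 0.151) and Vim (log2 -0.20, adjusted p = 0.395) did not pass.

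The epithelial factors in co-cultured NFs were set beside the tumor cell RNA of the same libraries. Grhl2 went from 0 counts in NFs alone to a level at least 9.38-fold above the floor of 3 counts, a direction that the filter had set. The share from summed epithelial markers corresponds to 0.824, 1.22, 1.55 and 3.45 CPM of tumor Grhl2 in the CD26- and CD26+ NFs of gel 4 and of gel 5, where 0.667, 2.38, 1.78 and 2.62 CPM were measured. The median marker gives 0.602, 0.884, 1.10 and 2.76 CPM and the highest single marker 2.97, 3.84, 5.00 and 9.63 CPM, so that the order of the 2 values depends on the markers taken. For Ovol1 the summed share corresponds to 1.33, 1.97, 1.51 and 3.36 CPM, where 2.12, 1.93, 1.78 and 4.17 CPM were measured (log2 0.67 over culture, adjusted p = 0.238). The part of this RNA in the Grhl2 result was not tested.

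CD26- and CD26+ NFs differed in 1 member. Zeb1 was 1.56-fold lower in CD26+ NFs (log2 -0.64, SE 0.127, adjusted p = 0.0213) and lower in each of the 3 gels, at 92.9 against 134.0 CPM, 105.3 against 124.8 CPM and 91.7 against 145.4 CPM. Of all genes 3.60% were lower and 3.93% higher in CD26+ NFs (540 and 590 genes, against 263 and 1120 when scaled by totals only). The Zeb1 call was lost without the CD26- NFs of gel 5 (adjusted p = 0.125) and without the CD26+ NFs of gel 5 (adjusted p = 0.0943). Twist1 (log2 0.47, adjusted p = 0.0630), Zeb2 (log2 -0.61, adjusted p = 0.0625) and Prrx1 (log2 -0.44, adjusted p = 0.0601) did not pass, and DESeq2 called all 3 (adjusted p = 0.0412, 0.0196 and 0.00259).

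Other genes of the same pathway were taken from 4 lists. Of 16 further factors tied to EMT, 14 were tested in tumor cells, 2 were higher and 2 lower in co-culture, beside 10.8% higher and 11.5% lower among all genes, and the median log2 change was 0.17 beside 0.01 over all genes. The 4 with the highest mean CPM over the 10 libraries were Tead1 (log2 0.18, adjusted p = 0.247) and Yap1 (log2 -0.03, adjusted p = 0.891), partners in Hippo signalling, the E protein gene Tcf4 (log2 0.31, adjusted p = 0.133) and Runx1 (log2 0.49, adjusted p = 0.0125). Of 16 factors and splicing regulators of the epithelial state, 13 were tested, none was higher and 6 were lower, beside the same shares of all genes, with a median of -0.83. The 6 include Grhl3, which at 1.68 and 0.954 CPM alone and 0 in co-culture entered the test through the libraries alone, so that its direction was set. Elf3, an epithelial ETS factor, fell in co-culture (110.3 and 100.2 CPM alone, 53.2 and 49.1 CPM in co-culture; log2 -1.07, adjusted p = 0.000282), and Klf4 (log2 0.30, adjusted p = 0.0997), Klf5 (log2 -0.37, adjusted p = 0.114) and the splicing regulator Esrp1 (log2 -0.11, adjusted p = 0.483) did not pass. With 10 libraries in 1 fit 2 of the EMT-linked and 1 of the epithelial-state factors, all lower, were called, with no line term none of either list was, and Elf3 had adjusted p-values of 0.0228 and 0.0981 and Runx1 of 0.558 and 0.191 in these fits.

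Of 19 epithelial genes that EMT factors are known to repress, 18 were tested in tumor cells, 10 were lower in co-culture and none was higher, beside 11.5% and 10.8% of all genes, with a median of -0.67. The desmosome gene Dsp fell (717.5 and 847.3 CPM alone, 364.3 and 393.2 CPM in co-culture; log2 -1.07, adjusted p = 0.000595), while the keratin genes Krt8 (log2 0.22, adjusted p = 0.270), Krt18 (log2 0.14, adjusted p = 0.489) and Krt19 (log2 0.07, adjusted p = 0.856) did not pass. Of 20 mesenchymal genes 14 were tested, 8 were higher and 1 lower, with a median of 1.35. Of the 14, 3 were below the level of the filter in both libraries alone and entered the test through the co-cultured libraries, so that their direction was set and the count and median support nothing. Of these 8 higher genes, 6 are among the NF markers from which the NF share was computed, such as the collagens Col1a1 (3.10 and 1.78 CPM alone, 89.1 and 28.1 CPM in co-culture), Col1a2 (0.272 and 0.891 CPM, then 3.17 and 13.1 CPM) and Col3a1 (0.326 and 0.127 CPM, then 32.5 and 19.4 CPM); the part of NF RNA in these values was not tested. Fn1, which codes for fibronectin, did not pass (log2 0.29, adjusted p = 0.316). With 10 libraries in 1 fit 1 epithelial gene was lower and 6 mesenchymal genes were higher, with no line term no gene of either list was called, and Dsp had adjusted p-values of 0.159 and 0.0883.

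**Figure D4:**
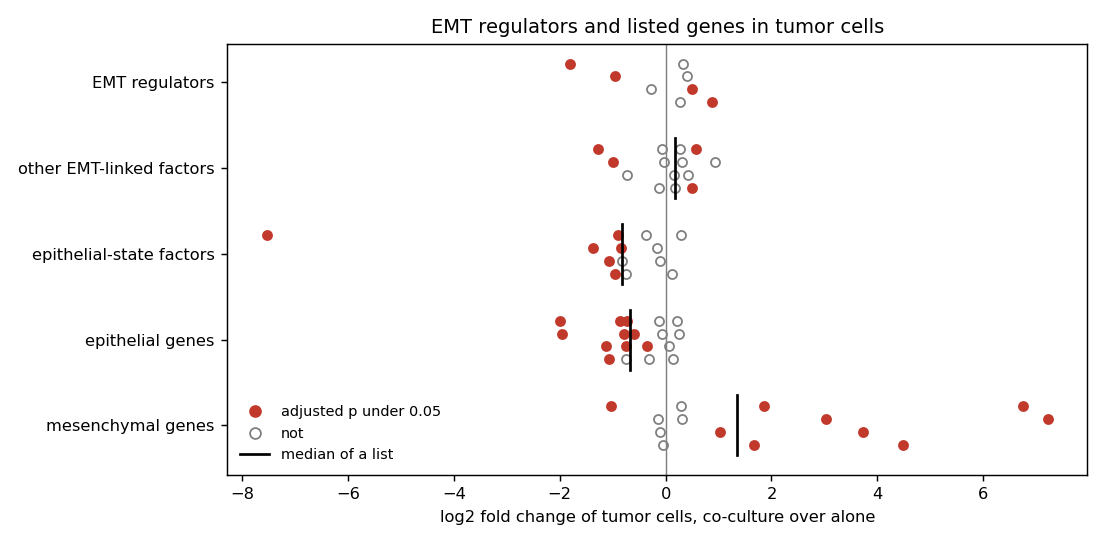
Log2 fold change of tumor cells in co-culture over alone for the EMT regulators tested and for the tested genes of 4 lists; each point is 1 gene, red points have an adjusted p under 0.05, and black lines are list medians. Red points of the epithelial lists lie below 0, and all but 1 of those of the mesenchymal list lie above 0.

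Across cell types the lists split more widely. In tumor cells against NFs over both cultures, 17 of 18 epithelial genes tested were higher and none was lower, 16 of 20 mesenchymal genes were lower and 1 was higher, 11 of 14 epithelial-state factors were higher and none was lower, and 3 of 16 further EMT-linked factors were higher and 7 lower, while 29.3% of all genes were higher and 33.2% lower. The medians were 7.13, -10.17, 4.06 and -0.08, beside -0.04 over all genes. Many of these genes passed the filter through the cell type where they are high, so that their direction was set: among cells cultured alone 13 of the 18 epithelial genes and 8 of the 14 epithelial-state factors were below the level of the filter in NFs, and 9 of the 20 mesenchymal genes in tumor cells. The counts and medians are therefore a description of the cell types. In NFs, co-culture with tumor cells went with 11 higher of 14 epithelial genes tested, none lower, in libraries that held the tumor share given above, and 9 of the 14 were below the level of the filter in both libraries of NFs alone, so that their direction was set; of the further EMT-linked factors 1 was higher and 6 lower, and of the mesenchymal genes 5 were higher and 8 lower, beside 25.9% higher and 22.9% lower among all genes tested in NFs. Of 10 epithelial-state factors tested in NFs, 6 were higher and 1 lower. Of these 10, 4 were below the level of the filter in both libraries of NFs alone, so that their direction was set.

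Promoters are shown for Snai1 and for 3 epithelial genes because Snail and Zeb factors bind the E-box CACCTG. The 250 bases before the transcription start were taken from RefSeq (GRCm38.p6), where Snai1, Twist1, Twist2, Zeb2, Prrx1 and Vim of the 10 members were matched. The E-box was searched on both strands, as CACCTG and CAGGTG, and stands in capitals below; it was found in 17.2% of the 32851 promoters of the table and in 19.4% of its 27025 genes. Of the 6 members matched, only Snai1 holds it, with its first base 126 bases before the start.
Snai1, chr2:167537945-167538194, plus strand: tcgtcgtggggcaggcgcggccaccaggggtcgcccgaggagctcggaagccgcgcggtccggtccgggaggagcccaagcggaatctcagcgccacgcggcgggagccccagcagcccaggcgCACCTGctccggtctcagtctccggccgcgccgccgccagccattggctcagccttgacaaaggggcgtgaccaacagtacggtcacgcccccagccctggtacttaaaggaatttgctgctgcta
Epcam, chr17:87635729-87635978, plus strand: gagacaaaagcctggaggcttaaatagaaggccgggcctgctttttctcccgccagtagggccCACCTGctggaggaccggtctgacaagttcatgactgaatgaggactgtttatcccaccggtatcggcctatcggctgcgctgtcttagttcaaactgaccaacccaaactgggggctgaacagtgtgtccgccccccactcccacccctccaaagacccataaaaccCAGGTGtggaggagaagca
Crb3, chr17:57061951-57062200, plus strand: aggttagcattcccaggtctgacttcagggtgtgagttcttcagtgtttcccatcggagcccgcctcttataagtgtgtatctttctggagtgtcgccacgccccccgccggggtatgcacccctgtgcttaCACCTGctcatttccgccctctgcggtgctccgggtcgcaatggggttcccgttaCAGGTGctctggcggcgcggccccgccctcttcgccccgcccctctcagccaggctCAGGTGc
Rab25, chr3:88548280-88548529, minus strand: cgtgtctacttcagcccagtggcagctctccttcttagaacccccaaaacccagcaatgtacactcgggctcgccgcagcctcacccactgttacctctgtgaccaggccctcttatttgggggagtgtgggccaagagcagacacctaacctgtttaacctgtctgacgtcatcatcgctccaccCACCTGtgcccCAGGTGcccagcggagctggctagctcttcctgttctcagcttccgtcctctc
Of the 19 epithelial genes 12 had a promoter in the table and 10 hold the E-box, and of the 20 mesenchymal genes 6 had one and none does. The epithelial list was made of genes that EMT factors are known to repress, so its share is a description. Epcam, the epithelial adhesion gene, has it 187 and 19 bases before the start, the polarity gene Crb3 at 118, 63 and 7 bases and the trafficking gene Rab25 at 64 and 53 bases. In tumor cells Rab25 fell in co-culture (log2 -1.96, adjusted p = 0.000293, and 0.113 with no line term), and Epcam (log2 -0.30, adjusted p = 0.0927) and Crb3 (log2 -0.74, adjusted p = 0.132) did not pass. These 3 genes were chosen for display after their promoters and values were seen. A match is a run of letters in this window and says nothing of binding.

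The genes whose log2 CPM ran most like each member over the 10 libraries were listed as a description. The libraries fall into 2 cell types, and the part of cell type in these correlations was not tested. Next to Snai1 stood Per1 (r = 0.913) and Echdc2 (0.912), next to Snai2 Slc1a3 (0.997) and Sh3rf3 (0.996), next to Twist1 Nr2f6 (0.961) and Faap20 (0.959), and next to Twist2 Aplp1 and Ptgis (0.999 each). Zeb1 ran most like Uggt2 and Alg11 (0.997 each), Zeb2 like Zfp260 (0.981) and Pde4d (0.970), and Prrx1 like Rian and Pde10a (0.999 each). Vim ran most like B4galt1 (0.956) and Emc10 (0.945), Grhl2 like AU018091 (0.996) and the laminin gene Lama3 (0.995), and Ovol1 like Myh14 (0.994) and Cnot9 (0.990). The highest likeness of Snai1, Twist1 and Vim, whose levels overlap between tumor cells and NFs, was below that of the members that separate them.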

How the data were processed

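RNA of sorted cells was sequenced from stranded mRNA libraries. The authors deposited 1 table of raw counts per gene for the 10 libraries, and per the submitters' processing notes reads were aligned with HISAT2 2.2.1 to GRCm38; the counting program, its strand setting and the annotation are not given in the sources used here. The 1 row with no gene ID held 0 counts. Groups came from the sample titles.

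CPM were counts divided by the library total (14142334 to 18408940). Tests used edgeR 4.0.16 in R 4.3.3 (TMM scaling, filterByExpr, two-sided quasi-likelihood test, Benjamini-Hochberg adjustment over all genes tested, threshold 0.05): all 10 libraries in 4 groups for cell type and its interaction with culture, 4 tumor libraries with line and culture, and 6 NF libraries with subset and culture. Scripts were tested on simulated counts. Gel numbers mark shared gels per the labels; deviations of gel 5 from gel 4 correlated between the 3 cell groups (r = 0.304, 0.218 and 0.106 over 9333 genes, across genes), and a replicate block was an alternative. No 2 libraries of a group agreed within sampling noise, and such libraries also differed in the tumor line of their gels. Other alternatives were DESeq2 1.42.0 and its size factors, totals only and NF libraries summed per gel (both added after seeing the data), no filter, a log2 cut of 2, leaving out each library, pooled spread and no line term. Ratios of counts have exact 95% intervals.

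Members and lists were chosen with earlier results of these data known. All members are named, and of each list the 4 genes with the highest mean CPM over the 10 libraries; the NF and tumor shares of co-cultured libraries were computed as the summed CPM of the fixed markers above the level alone, relative to the other cell type of the same gel. Genes like a member were ranked by Pearson's r of log2 CPM (prior count 2, mean of at least 1 CPM). A further floxed allele of the tumor model is not reported here.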

Additional observations from a re-analysis of the deposited data

Results flagged for a closer look

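The response to co-culture differed between tumor cells and NFs by an interaction test in edgeR for 5 members, with differences of the log2 responses of 1.45 for Snai1, 2.24 for Snai2, 1.09 for Vim, -8.92 for Grhl2 and -2.38 for Ovol1. The value of Grhl2 is a fitted one against NFs alone with 0 counts, where it could only rise in NFs, so that its call is a description. With the NF libraries of a gel summed, Snai1 and Vim were not called (adjusted p = 0.0943 and 0.0653).

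The ratio of co-culture to alone had opposite signs on the log2 scale in the 2 tumor lines for Zeb1 (-0.0363 in 13-MCB-17 and 0.758 in 10-SJK-221) and for Prrx1 (-0.527 and 1.06, on 3 to 9 counts a library), with 1 library per line and culture. Over both lines Zeb1 did not pass the test and Prrx1 was too low to be tested, and the counting intervals included no change for Zeb1 in 13-MCB-17 (ratio 0.797 to 1.19) and for Prrx1 in both lines (0.203 to 2.18 and 0.478 to 12.5). The difference between the lines was not tested.

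Among the 4 co-cultured NF libraries, the CD26+ NFs of gel 5 stood apart for Ovol1, at 4.17 CPM. The same library had the highest tumor share, at 6.28%. Chance sets such a sample apart in about 1 of 20 groups, and the 10 members were all examined in this group.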

How the results depend on the processing

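Of 45 member calls over the 8 comparisons, 27 passed under all alternatives other than the further log2 cut; the losses of the other 18 are given with the report's results. Among the 27 are the calls of Twist2 and Prrx1 between tumor cells and NFs, whose direction the filter had set. Calls of Grhl2 that rest on 0 counts in NFs alone are also among them, so the count of 27 is a description. Counts of called genes (members) moved by over 1.5 times as follows, and the cause was not tested unless the setting itself removes libraries or adds a threshold. A further log2 cut of 2 left 4131, 4472 and 3713 genes for tumor cells against NFs over cultures, alone and in co-culture, 1394 (3) for the interaction, 2047 (2) for NF culture, 192 (0) for CD26+ against CD26- NFs, 418 (0) for tumor culture and 278 (0) for line. For CD26+ against CD26- NFs, totals only and no filter called 2 members each and DESeq2 4. Summing the NF libraries of a gel left 3 members for the interaction. For line, no filter gave 2917 genes, DESeq2 945 and a shared spread of 10 libraries 396 (0). For tumor culture, DESeq2 gave 1574, the shared spread 573 (1), with 58.6% of calls higher against 48.2%, and no line term 0 (0) in edgeR, with 2207 genes at an unadjusted p under 0.05.

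Leaving out 1 library at a time gave 1576 to 2700 genes (2 to 5 members) for the interaction, 205 to 1309 (0 to 3) for CD26+ against CD26- NFs, and, with the spread of 10 libraries, 14 to 173 (0) for tumor culture and 85 to 97 (0) for line; there the lone sample of a culture is assumed to vary like the others. It gave 9062 to 9704 genes (7 to 9) over cultures, 7033 to 8620 (8 to 10) alone, 5499 to 8287 (7 to 8) in co-culture and 5074 to 7099 (4 to 7) for NF culture.

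Signs turned only for members that had not passed. Totals only, which moved the median of all genes from -0.04 to 0.13 over cultures, gave 0.057 for Snai1 over cultures, 0.13 for Twist1 in co-culture, 0.10 for Vim between NF subsets, and 0.0037 for Zeb1 and 0.019 for Ovol1 between lines; the size factors of DESeq2, in edgeR and in DESeq2, gave -0.027 for Vim in co-culture. Without 1 library, log2 values ran from -0.29 to 0.054 (Snai1 over cultures), -0.25 to 0.10 (Twist1 in co-culture), -0.11 to 0.18 (Vim in co-culture), -0.13 to 0.56 (Zeb1, interaction), -0.95 to 0.44 (Prrx1, interaction), -0.22 to 0.10 (Vim), -0.0097 to 0.23 (Snai1) and -0.033 to 0.31 (Twist2) between NF subsets, -0.080 to 0.75 (Zeb1, tumor culture), and -0.48 to 0.35 (Zeb1) and -0.15 to 0.088 (Ovol1) between lines.

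With gel as a replicate block, 8 members in 7642 genes were called between co-cultured tumor cells and NFs and 1 member in 1331 genes between NF subsets, and no member call changed. TMM library sizes moved 5 of 40 mean CPM beyond 1 SD, among them Ovol1 in tumor cells alone (164.6 CPM). Depth limits Twist2 and Prrx1 in tumor cells, read on 0 to 9 counts a library.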

Other observations

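Several relatives and partners of the members, named after their values were seen, also changed with culture. In NFs, Prrx2, the homeobox relative of Prrx1, was read at 75.6 and 110.1 CPM alone (CD26- and CD26+) and at 25.0, 15.1, 22.3 and 21.0 CPM in co-culture (log2 -2.12, adjusted p = 4.36e-05 in edgeR), while Prrx1 rose (log2 0.49, adjusted p = 0.0132). The forkhead genes Foxc1 (log2 -1.37, adjusted p = 0.000814) and Foxc2 (log2 1.62, adjusted p = 0.000560) went opposite ways in the same libraries. Of all genes tested in NFs, 25.9% were higher and 22.9% lower in co-culture.

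In tumor cells, Id2, which codes for an inhibitor of basic helix-loop-helix factors, fell from 37.2 to 20.5 CPM in 13-MCB-17 and from 57.9 to 18.8 CPM in 10-SJK-221 in co-culture (log2 -1.27, adjusted p = 0.00184). Tcf3, which codes for an E protein of that class, rose from 62.3 to 102.3 CPM and from 94.5 to 134.3 CPM (log2 0.58, adjusted p = 0.00487). Cdh2, which codes for N-cadherin, rose from 21.3 to 48.3 CPM and from 34.0 to 64.3 CPM (log2 1.02, adjusted p = 0.000757). Both lines showed the same direction for each of these 3 genes. With 10 libraries in 1 fit the adjusted p was 0.0224 for Id2, 0.125 for Tcf3 and 0.0373 for Cdh2, and with no line term none was called (0.119, 0.322 and 0.182). The EMT-linked factor Sox9 also fell, from 61.76 to 28.17 CPM and from 90.85 to 51.22 CPM (adjusted p = 0.000794). Of the mesenchymal list, S100a4 fell from 8.528 to 2.998 CPM and from 9.162 to 6.217 CPM (adjusted p = 0.0288). In these fits Sox9 had adjusted p-values of 0.0418 and 0.268 and S100a4 of 0.163 and 0.327. Of all genes tested in tumor cells, 10.8% were higher and 11.5% lower in co-culture.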
